A study of Caenorhabditis elegans with 12 samples.

Results

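The genes described here encode the proteins of the mitochondrial ribosome in Caenorhabditis elegans. They were chosen as the probe sets whose only gene symbol in the array annotation begins with mrpl- (large subunit) or mrps- (small subunit), and each gene was represented by its probe set with the highest mean. The rule found 59 genes, 34 of the large and 25 of the small subunit, on 65 probe sets, out of 17118 genes with a symbol of their own on the array. Of these, 57 passed a filter on low values (log2 above 4 in at least 3 of the 12 arrays) and were tested, 33 of the large and 24 of the small subunit. A RefSeq gene table lists 71 mrpl and mrps genes, so the array reads most of the family but not all of it, and a further 2 probe sets that name such a gene together with another one were not counted.

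Total RNA of whole N2 worms, the wild-type strain, was hybridised to 12 Affymetrix arrays, with 3 arrays in each of 4 RNA interference (RNAi) groups. The worms were fed HT115 bacteria carrying RNAi against hsp-6 with hsf-1, hsp-6 with dve-1, hsp-6 alone, or an empty vector. Feeding began on day 1 of adulthood and lasted 3 days, the worms are labelled day 3 adults, and all groups were washed to remove eggs and larvae. The study asked which transcripts respond to hsp-6 knockdown and whether they depend on hsf-1, dve-1 or both. The product of hsp-6 is the mitochondrial Hsp70, a chaperone of the matrix; hsf-1 encodes the heat shock transcription factor, and dve-1 a homeodomain factor of the mitochondrial unfolded protein response.

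Mitochondria keep their own ribosomes, which translate the few proteins encoded by the mitochondrial genome, nearly all of them subunits of the respiratory chain. The ribosomal RNAs come from the mitochondrial genome, but all of these ribosomal proteins are encoded in the nucleus, made in the cytosol and imported with the help of mitochondrial Hsp70. Many descend from bacterial ribosomal proteins, and others exist only in mitochondria. In worms, lowering mitochondrial ribosomal proteins, mrps-5 the best known, activates the mitochondrial unfolded protein response and lengthens life.

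Several properties of the arrays bear on every value below. The hsp-6 transcript averaged 9.63 ± 0.41 with hsp-6;hsf-1 RNAi, 9.82 ± 0.60 in the hsp-6;dve-1-labelled arrays and 6.84 ± 0.21 with hsp-6 RNAi, against 11.12 ± 0.17 with empty vector (log2 values, SD, n = 3 each). The hsp-6 transcript was therefore higher in both double RNAi groups than with hsp-6 RNAi alone (differences of 2.79 and 2.98, limma adjusted p = 0.0024 and 0.00086). Whether its knockdown was weaker there was not tested. The more strongly read of the dve-1 probe sets averaged 8.06 ± 0.88 in the hsp-6;dve-1-labelled arrays and 5.53 ± 0.39 with hsp-6 RNAi. This rise goes against the label (limma adjusted p = 0.03), and its source was not tested. With hsp-6;hsf-1 RNAi this probe set read 6.25, 5.87 and 8.18, so replicate 3 was high there too. That difference from hsp-6 RNAi was not called (1.23, limma adjusted p = 0.21), and the empty vector mean was 5.51 ± 0.06. The other dve-1 probe set averaged 4.85 ± 0.40 in the hsp-6;dve-1-labelled arrays and 4.61 ± 0.03 with hsp-6 RNAi. It was not called (0.24, limma adjusted p = 0.63). Transcripts of hsf-1 were not called lower with hsp-6;hsf-1 RNAi than with hsp-6 RNAi (-0.90 and -0.78 on its probe sets, limma adjusted p = 0.12 and 0.26). Against empty vector these differences were -1.64 and -1.60 (limma adjusted p = 0.085 and 0.087). They were -0.74 and -0.82 with hsp-6 RNAi alone and -0.89 and -1.16 in the hsp-6;dve-1-labelled arrays, also not called. The most alike arrays were hsp-6 replicates 1 and 3 (r = 0.9966, against 0.9825 for the next pair). Each hsp-6;hsf-1 array most resembled one labelled hsp-6;dve-1, and hsp-6;hsf-1 replicate 3 and hsp-6;dve-1 replicate 2 lay farthest out on the first principal component. Whether the replicates of a group are separate cultures is not said in the labels, and p-values then reflect only how far these particular samples scatter.

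Against empty vector, 7 of the 57 tested mitochondrial ribosomal protein genes fell with hsp-6 RNAi and none rose (limma, adjusted p below 0.05). Of all 12057 tested probe sets, 0.771% were called lower and 1.97% higher in this comparison. The genes called lower were 4 of the 33 of the large subunit (mrpl-12, mrpl-35, mrpl-22 and mrpl-37) and 3 of the 24 of the small subunit (mrps-21, mrps-25 and mrps-12), with falls of 0.92 to 1.52 on the log2 scale. The median difference was -0.35 for the large and -0.42 for the small subunit, beside -0.02 over all tested probe sets. A negative difference was found for 45 of the 57 genes (26 large, 19 small), and for 52% of all tested probe sets.

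The largest fall was in mrps-21, the counterpart of bacterial S21, a small protein on the platform of the small subunit close to where mRNA leaves it. Its log2 values were 8.69, 8.07 and 8.49 with hsp-6 RNAi, against 9.65, 9.81 and 10.34 with empty vector. All 3 hsp-6 arrays lay below the lowest empty vector array, and the difference of -1.52 (SE 0.23) corresponds to a level 2.86-fold lower (adjusted p = 0.0074). Of the 7 calls it was the one that held without any single array, whichever of the 12 was left out.

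The stalk protein gene mrpl-12 gave 8.37, 7.68 and 8.49 with hsp-6 RNAi and 9.38, 9.55 and 10.02 with empty vector. Its bacterial counterpart, L7/L12, recruits the translation factors that drive the ribosome, and in human cells MRPL12 also binds the mitochondrial RNA polymerase. The groups did not overlap, and the level was 2.77-fold lower with hsp-6 RNAi (log2 difference -1.47, SE 0.29, adjusted p = 0.024). The other stalk proteins tested were mrpl-11, mrpl-1 and mrpl-10, with differences of -0.57, -0.36 and -0.24, none of them called.

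Values of 8.04, 7.59 and 8.14 were measured for mrps-25 with hsp-6 RNAi, against 8.88, 9.11 and 9.83 with empty vector. This gene encodes a mitochondria-specific protein of the small subunit whose human counterpart is altered in a mitochondrial disease. Again no hsp-6 array reached the lowest empty vector array, and the difference was -1.35 (SE 0.26, adjusted p = 0.02).

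Of the decoding and body proteins of the small subunit, mrps-12 was the only one of 5 called. It is the counterpart of bacterial S12, which lies at the decoding centre and bears on the accuracy of translation. Its values were 8.44, 7.85 and 8.48 with hsp-6 RNAi and 9.03, 9.26 and 9.87 with empty vector, a difference of -1.13 (SE 0.26, adjusted p = 0.043) with no overlap. The others in this group (mrps-16, mrps-17, mrps-5 and mrps-15) had differences between -0.33 and 0.06.

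The 3 remaining calls were smaller and lay in the large subunit. For mrpl-35, the counterpart of a bacterial core protein, values were 9.17, 9.05 and 9.55 with hsp-6 RNAi and 10.11, 10.12 and 10.59 with empty vector (-1.02, SE 0.21, adjusted p = 0.032). The tunnel protein gene mrpl-22, whose bacterial counterpart lines the path of the growing peptide, read 8.46, 7.84 and 8.48 with hsp-6 RNAi and 9.11, 9.07 and 9.40 with empty vector (-0.93, SE 0.20, adjusted p = 0.038). In mrpl-37, which encodes a mitochondria-specific protein, the values were 7.30, 6.85 and 7.18 with hsp-6 RNAi and 7.94, 7.87 and 8.27 with empty vector (-0.92, SE 0.20, adjusted p = 0.04). None of the 3 genes had an hsp-6 array that reached its empty vector arrays.

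**Figure D1:**
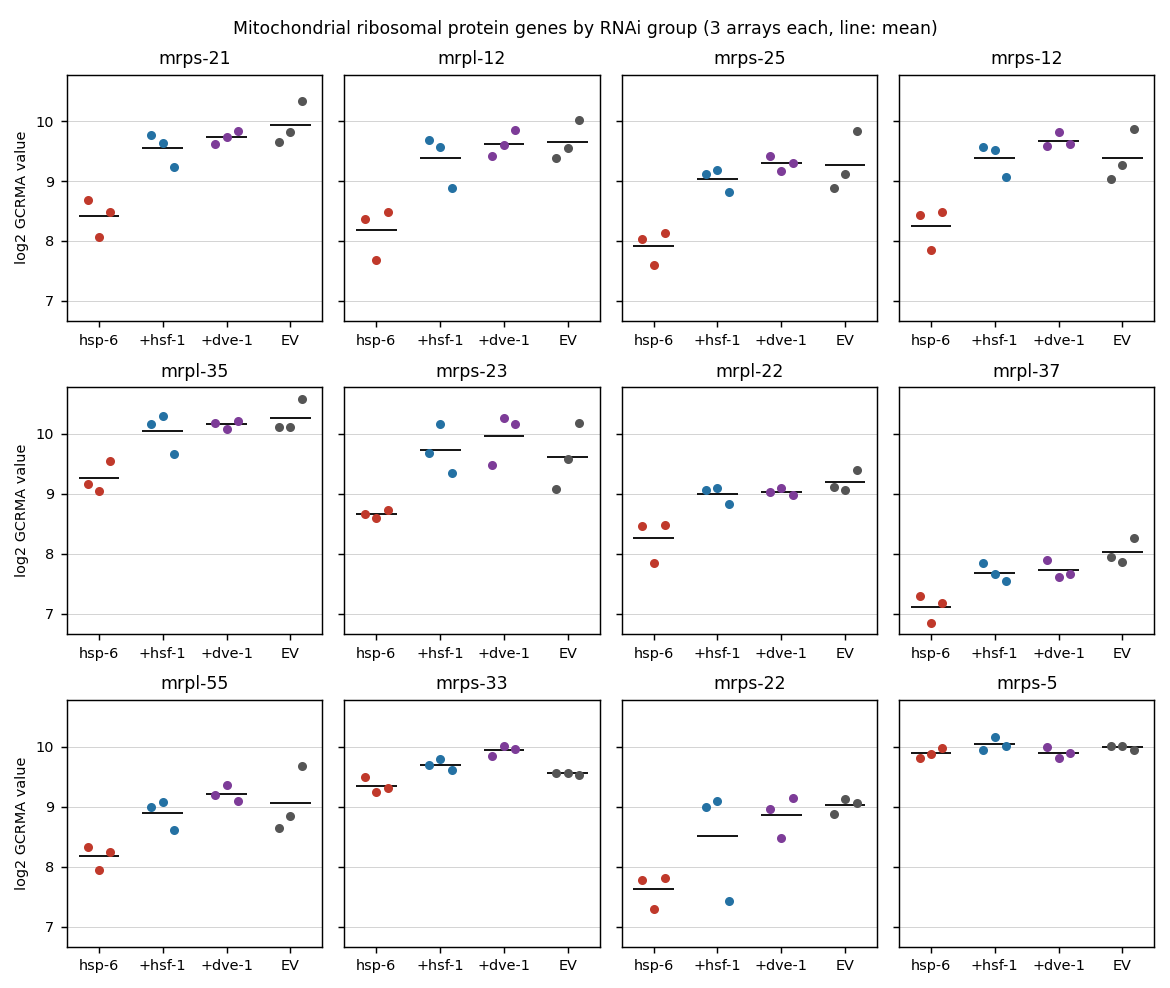
Log2 GCRMA values (y axis) of the 10 genes called in any comparison, with mrps-22 and mrps-5, on every array. Columns of points are hsp-6 RNAi, hsp-6 with hsf-1 (+hsf-1), the arrays labelled hsp-6 with dve-1 (+dve-1) and empty vector (EV), 3 arrays each from replicate 1 to 3, with a line at the group mean. The hsp-6 arrays lie lowest for the called genes, as for mrps-21 with 8.07 to 8.69, while mrps-5 lies between 9.82 and 10.17 in all groups.

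A difference of similar size can miss the threshold where the arrays scatter. For mrps-22, a mitochondria-specific gene of the small subunit whose human counterpart is altered in a mitochondrial disease, values were 7.78, 7.30 and 7.81 with hsp-6 RNAi and 8.88, 9.13 and 9.07 with empty vector. The groups were well apart, with SDs of 0.29 and 0.13. But the fit pools the spread within all groups, and the hsp-6;hsf-1 arrays scattered widely. They read 7.43 on 1 array and 9.0 and 9.09 on the others (SD 0.93). The difference of -1.40 had an SE of 0.39 and an adjusted p of 0.081 by limma. The large subunit genes mrpl-15, mrpl-30 and mrpl-20, which have bacterial counterparts, had differences of -1.19, -1.05 and -0.98 and adjusted p-values of 0.057, 0.089 and 0.11 from limma.

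In 34 of the 57 genes every hsp-6 array lay below every empty vector array, against 20.2% of all tested probe sets, and in 1, mrps-11, every hsp-6 array lay above (19.4% of all). The values of mrps-11, a platform protein gene, were 11.21, 11.14 and 11.12 with hsp-6 RNAi and 10.63, 10.58 and 11.03 with empty vector, a difference of 0.41 that was not called (adjusted p = 0.17). After it the highest differences were those of mrpl-47 and mrpl-18, 0.38 and 0.34, counterparts of a bacterial protein at the tunnel exit and of a 5S RNA binding protein. The difference of mrps-5 was -0.10 (SE 0.13, adjusted p = 0.74), from 9.82, 9.88 and 9.98 with hsp-6 RNAi and 10.01, 10.01 and 9.95 with empty vector, so the member best known from knockdown work was among those with the smallest differences.

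**Figure D2:**
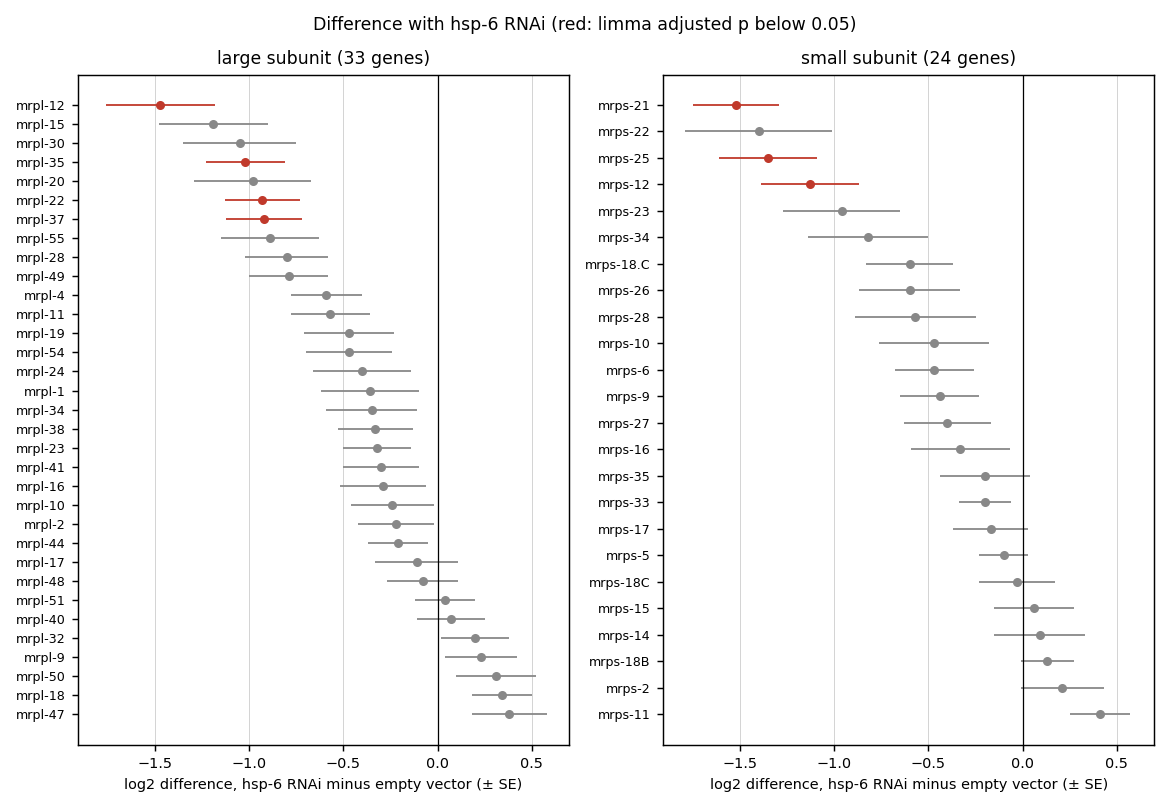
Log2 difference, hsp-6 RNAi minus empty vector, with its standard error (x axis), for the 33 large subunit genes and the 24 small subunit genes tested, in order of size. The 7 genes in red passed limma's adjusted p of 0.05, and the differences run from -1.52 for mrps-21 to 0.41 for mrps-11.

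By role, the groups of proteins overlapped widely; this grouping was made after the values had been seen and has no test. The 9 tested small subunit proteins grouped as mitochondria-specific all had negative differences, from -1.40 to -0.20 with a median of -0.60. Placing mrps-28 (-0.57) among them is not certain. In 8 of the 9 every hsp-6 array lay below every empty vector array. That held for 59.6% of the 57 members and for 20.2% of all tested probe sets. The platform proteins of the small subunit (7 genes) had a median of -0.03 and ran from -1.52 for mrps-21 to 0.41 for mrps-11. The 3 head proteins mrps-9, mrps-10 and mrps-14 had a median of -0.44, and none was called. In the large subunit the medians were closer together, at -0.47 for the 4 stalk proteins, -0.32 for the 7 proteins of the peptide tunnel and its exit, -0.47 for the 11 other proteins with a bacterial counterpart and -0.30 for the 11 mitochondria-specific proteins.

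The genes mrps-2 and mrpl-4 are next to each other on chromosome V, with differences of 0.21 and -0.59 (the second probe set of mrpl-4 gave -0.89), neither called. Symbols for the S18 family stand for 3 genes: mrps-18.C on chromosome II had a difference of -0.60, mrps-18B on the same chromosome 0.13, and mrps-18C on chromosome III -0.03. The tested members lie on the 5 autosomes, 17 of them (29.8%) on chromosome III, which holds 16.8% of all tested genes, and none on the X chromosome, which holds 13.2%.

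Single arrays weighed on the size of the change. Empty vector replicate 3 was the highest of its group for 45 of the 57 genes (78.9%, against 37.8% of all tested probe sets). The members' median distance from the empty vector mean was -0.35, -0.43 and -0.31 on the hsp-6 arrays, against -0.15, -0.15 and 0.29 on the empty vector arrays. All 3 hsp-6 arrays thus stayed below all 3 empty vector arrays. Without empty vector replicate 3 the median was -0.29, with 43 of 57 differences negative, but 1 gene was called in place of 7 (1.29% of all probe sets). Called genes also numbered 1 without hsp-6 replicate 1, 2 or 3 (0.805%, 1.02% and 0.887%) and 2 without empty vector replicate 1 or 2 (1.09% and 1.96%). They numbered 4 without hsp-6;hsf-1 replicate 1 or hsp-6;dve-1 replicate 3 (2.09% and 2.4%). The count was 3 without hsp-6;dve-1 replicate 1 (1.69%) and 12 without hsp-6;hsf-1 replicate 3 (6.13%). With hsp-6 replicates 1 and 3 averaged into 1 array, 1 gene was called, and without the pair of arrays farthest out, 16. The count over all probe sets moved with that of the members: 2.74% were called in either direction with all arrays, 0.846% with the averaged arrays and 13.9% without the farthest pair, where 7.26% were called lower.

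Whole worms mix many tissues, and in such samples fewer cells of a type and less RNA per cell cannot be told apart. Of 12 germline markers, 1 (fbf-2) was called lower with hsp-6 RNAi and 10 had negative differences, with a median of -0.52. Their summed signal (log2) was 14.10 to 14.20 on the hsp-6 arrays and 14.40 to 14.56 on the empty vector arrays, and none of the 12 lay below log2 4. In the double RNAi groups the germline markers stayed low against empty vector (medians of -0.62 with hsp-6;hsf-1 RNAi and -0.56 in the hsp-6;dve-1-labelled arrays, none called), where the median of the mitochondrial ribosomal protein genes was -0.20 and -0.06. The 9 oocyte markers had a median of 0.08 with hsp-6 RNAi against empty vector, and none was called. Other lists had mostly negative differences in that comparison: 24 of 25 sperm markers (median -0.78, none called), 7 of 7 muscle markers (median -0.25, none called) and 68 of 85 cuticle collagen genes (median -0.39, with col-20 and col-124 called lower and col-183 higher). The medians of the 7 intestine and 5 neuron markers were 0.06 and 0.17, with none called. The part of tissue content in the hsp-6 difference was not tested.

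With hsp-6;hsf-1 RNAi 4 members were called higher than with hsp-6 RNAi alone, and none lower. Probe sets called higher made up 2.91% of all tested, and those called lower 2.76%. The 4 were mrpl-12 (1.20, SE 0.29, adjusted p = 0.037), mrps-12 (1.13, SE 0.26, adjusted p = 0.031), mrps-21 (1.12, SE 0.23, adjusted p = 0.025) and mrps-25 (1.11, SE 0.26, adjusted p = 0.032), all by limma. The median difference was 0.33 for the large and 0.13 for the small subunit, beside -0.10 over all tested probe sets.

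On the hsp-6;hsf-1 arrays mrps-21 read 9.76, 9.64 and 9.23, and mrpl-12 read 9.69, 9.57 and 8.88. For mrps-25 the values were 9.11, 9.18 and 8.82, and for mrps-12 they were 9.57, 9.52 and 9.07. All of these exceed every hsp-6 array of the same gene, and in each gene replicate 3 is the lowest of its group. That array was the lowest of the hsp-6;hsf-1 group for 50 of the 57 members (87.7%, against 53.1% of all tested probe sets), and replicate 2 the highest for 48 (84.2%, against 43%). The median difference over all 57 members was accordingly 0.37 without replicate 3 and 0.06 without replicate 2, beside 0.18 with all arrays. The count of 4 became 0 without hsp-6 replicate 1, 2 or 3 or hsp-6;hsf-1 replicate 1. Of all tested probe sets, 0.398%, 0.738%, 0.29% and 0.29% were called there, against 5.67% with all arrays. The count was 1 without hsp-6;dve-1 replicate 1 (3.43% of all) and 7 without empty vector replicate 3 (5.09%). Of those 7, 1 was lower: mrpl-18, which was also called lower without hsp-6;hsf-1 replicate 2 (differences of -0.58 and -0.68, adjusted p = 0.049 and 0.034), beside -0.58 with an adjusted p of 0.057 over all arrays by limma.

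The hsp-6;dve-1-labelled arrays gave higher levels than hsp-6 RNAi for 9 members, 4 of the large and 5 of the small subunit, and lower levels for none. Of all tested probe sets, 2.78% were called higher and 2.96% lower. The median difference was 0.39 for the large and 0.20 for the small subunit, beside -0.06 over all tested probe sets, and 10 of the 57 differences were negative, where 55% of all tested probe sets had a negative one. This comparison and the one with hsp-6;hsf-1 share the 3 hsp-6 arrays, as does the comparison with empty vector, so that a low reading on those arrays enters all 3.

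The 4 largest differences were those of mrpl-12 (1.45, SE 0.29, adjusted p = 0.02), mrps-12 (1.41, SE 0.26, adjusted p = 0.015), mrps-25 (1.37, SE 0.26, adjusted p = 0.016) and mrps-21 (1.31, SE 0.23, adjusted p = 0.013) from limma. On these arrays mrpl-12 read 9.42, 9.60 and 9.85, mrps-12 read 9.58, 9.81 and 9.62, mrps-25 read 9.42, 9.16 and 9.30 and mrps-21 read 9.62, 9.73 and 9.83. The arrays of each gene lie close together, and every one is above every hsp-6 array of that gene. A further call of equal size was mrps-23, a mitochondria-specific gene of the small subunit, with 9.49, 10.26 and 10.16 in the hsp-6;dve-1-labelled arrays against 8.66, 8.60 and 8.73 with hsp-6 RNAi (1.31, SE 0.31, adjusted p = 0.034).

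The mitochondria-specific large subunit gene mrpl-55 read 9.19, 9.36 and 9.10 in the hsp-6;dve-1-labelled arrays and 8.33, 7.94 and 8.24 with hsp-6 RNAi (1.05, SE 0.26, adjusted p = 0.043). Differences were 0.91 for mrpl-35, 0.78 for mrpl-22 and 0.59 for mrps-33, with adjusted p-values of 0.034, 0.049 and 0.034 from limma. The last of these is a mitochondria-specific protein gene of the small subunit with little scatter, at 9.84, 10.02 and 9.97 in the hsp-6;dve-1-labelled arrays against 9.49, 9.25 and 9.32 with hsp-6 RNAi. Its 3 empty vector arrays, at 9.57, 9.57 and 9.53, lie between. The count of 9 became 0 without hsp-6 replicate 2 (1.52% of all probe sets called, against 5.74% with all arrays). It was 1 without hsp-6 replicate 1, hsp-6 replicate 3 or the first hsp-6;dve-1 replicate (0.838%, 0.846% and 1.11%). It was 3 without hsp-6;dve-1 replicate 2 (1.83%), 4 without hsp-6;hsf-1 replicate 1 (4.11%) and 5 without empty vector replicate 2 (4.5%).

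Both comparisons with hsp-6 RNAi coincide with other differences between the arrays. The hsp-6 transcript itself was higher in both double RNAi groups, as given above, so weaker hsp-6 knockdown and the added RNAi cannot be told apart. Of 25 tested sperm markers, 22 were called higher with hsp-6;hsf-1 RNAi and 12 in the hsp-6;dve-1-labelled arrays than with hsp-6 RNAi. All of these calls were genes of a single family, the major sperm proteins (msp-). In each comparison 1 of the 25 had a negative difference (-0.64 and -0.43). The summed signal of all 27 sperm markers (log2) was 15.98 to 17.53 with hsp-6;hsf-1 RNAi and 14.71 to 17.73 in the hsp-6;dve-1-labelled arrays, against 8.88 to 12.92 with hsp-6 RNAi and 9.72 to 14.52 with empty vector. The sperm genes spe-9 and spe-38 did not pass the filter on low values. Of 85 tested cuticle collagen genes, 32 and 23 were called higher and 1 and 0 lower in the same order of groups. The summed cuticle signal was 17.75 to 18.35 with hsp-6;hsf-1 RNAi and 17.67 to 18.28 in the hsp-6;dve-1-labelled arrays, against 16.34 to 16.80 with hsp-6 RNAi and 16.04 to 17.54 with empty vector. Summed oocyte marker signal was 15.56 to 16.13 and 15.63 to 16.26 in those double RNAi groups, against 16.50 to 16.57 with hsp-6 RNAi and 16.25 to 16.64 with empty vector. Muscle markers tni-1 and tnt-2 were called higher in both double groups than with hsp-6 RNAi. Of the intestine markers, cpr-1 was called higher in both (2.80 with hsp-6;hsf-1 RNAi and 3.14 in the hsp-6;dve-1-labelled arrays) and pept-1 with hsp-6;hsf-1 RNAi (3.31). But 4 of the 7 intestine markers had negative differences in each comparison, with medians of -0.23 and -0.35. Summed intestine signal was 15.80 to 16.26 and 15.90 to 16.19 in those groups, against 16.14 to 16.47 with hsp-6 RNAi. The part of all these markers in the members' differences was not tested.

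**Figure D3:**
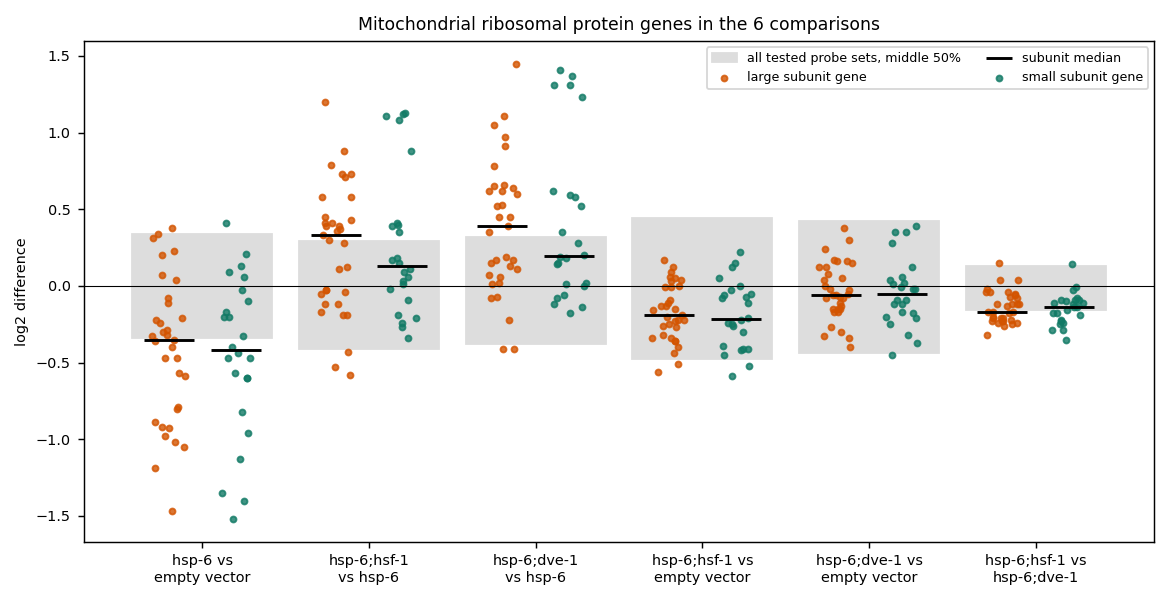
Log2 differences (y axis) of the 33 large and 24 small subunit genes in the 6 comparisons (x axis), with the subunit median as a black line and the middle 50% of all tested probe sets as a grey band. The medians are -0.35 and -0.42 for hsp-6 RNAi against empty vector and 0.39 and 0.20 for the hsp-6;dve-1-labelled arrays against hsp-6 RNAi, while the comparison of the double RNAi groups shows a narrow spread.

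Against empty vector, neither double RNAi group had a called member. With hsp-6;hsf-1 RNAi limma called no probe set at all (0% of 12057, although 3593 had an unadjusted p below 0.05, or 29.8%), and no member had an unadjusted p that low. The median of the members was -0.20, beside -0.13 over all tested probe sets. A negative difference was found for 45 of the 57 (59.1% of all tested probe sets), for 36 after a further quantile normalization and for 32 without either empty vector replicate 3 or hsp-6;hsf-1 replicate 3. In the hsp-6;dve-1-labelled arrays, 2.27% of all probe sets were called, and 2 of the 57 members had an unadjusted p below 0.05, both higher (26.8% of all probe sets, either way). Their median was -0.06, beside -0.10 over all tested probe sets, with 35 of the 57 differences negative (57% of all) 28 after a further quantile normalization and 21 without empty vector replicate 3. Deviations of same-numbered arrays of this pair of groups correlated at 0.36, 0.25 and 0.11, though no label pairs them. With the replicate number as a block, 1.24% of all probe sets and again no member were called. An adjusted p above the threshold does not show that these levels equal those with empty vector: mrps-21 had differences of -0.39 with hsp-6;hsf-1 RNAi and -0.21 in the hsp-6;dve-1-labelled arrays, each with an SE of 0.23.

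Set against each other, the double RNAi groups had no member called by limma and none with an unadjusted p below 0.05 (0.232% of all probe sets were called and 2.3% had such a p, in either direction). The hsp-6;hsf-1 mean was below that of the hsp-6;dve-1-labelled arrays for 53 of the 57 members (55.7% of all probe sets), but the differences were small, from -0.35 to 0.15 with a median of -0.14. That sign rested on hsp-6;hsf-1 replicate 3, the low array: the large subunit median was -0.17 with all arrays and 0.02 without it, and the small subunit median -0.14 and 0.05.

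**Figure D4:**
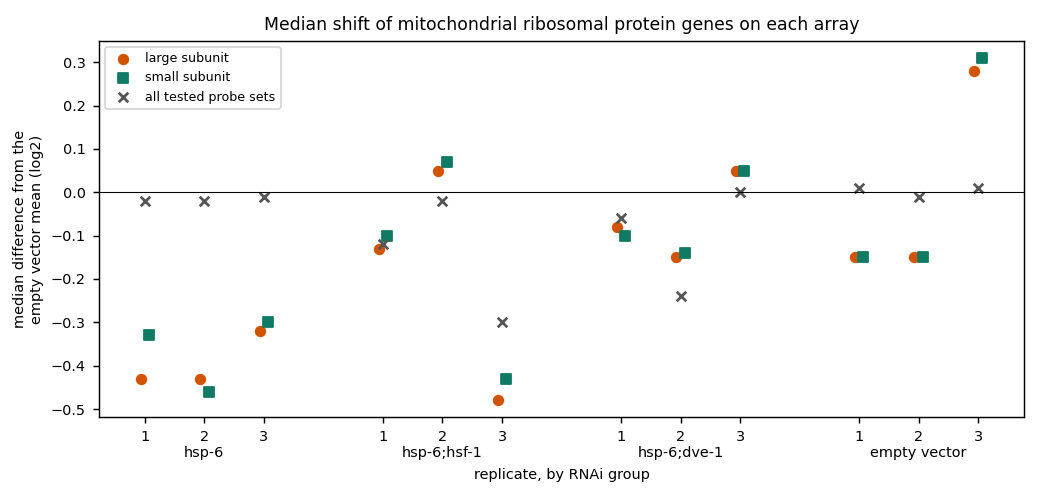
Median log2 difference from the empty vector mean (y axis) on each of the 12 arrays (x axis), for large subunit genes, small subunit genes and all tested probe sets. The hsp-6 arrays lie between -0.46 and -0.30 for both subunits with all probe sets near 0. For the subunits, hsp-6;hsf-1 replicate 3 and empty vector replicate 3 lie away from the other arrays of their groups. The median of all tested probe sets is also low on hsp-6;hsf-1 replicate 3 (-0.30) and on hsp-6;dve-1 replicate 2 (-0.24). On empty vector replicate 3 it is 0.01.

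Across the 4 groups, hsp-6 RNAi had the lowest group mean for 38 of the 57 members (66.7%, against 23.9% of all tested probe sets) and the highest for 9 (15.8%, against 29.3%). For 14 members all 3 hsp-6 arrays lay below all 9 other arrays, where 2.64% of all tested probe sets did so. They were mrpl-12, mrpl-22, mrpl-23, mrpl-28, mrpl-35, mrpl-37, mrpl-54 and mrpl-55 of the large subunit and mrps-12, mrps-18.C, mrps-21, mrps-23, mrps-25 and mrps-33 of the small subunit. For no member did all 3 hsp-6 arrays lie above all others, a pattern of 7.07% of all tested probe sets. In mrpl-28, whose bacterial counterpart is a protein of the large subunit, the hsp-6 arrays were 8.43, 8.44 and 8.41, and the lowest of the other 9 was 8.64. In mrpl-54, a mitochondria-specific gene, they were 9.82, 9.94 and 9.87, with 10.01 the lowest of the others. Differences of this regularity were not all called: mrpl-28 had -0.80 (adjusted p = 0.082) for hsp-6 RNAi against empty vector.

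The share of genes called lower with hsp-6 RNAi was 12.1% in the large and 12.5% in the small subunit, and the share without overlap 60.6% and 58.3%. On each array the median distances of the subunits from the empty vector mean differed by at most 0.10. The signal of a probe set depends on its probes, so levels are not compared between genes; with empty vector the highest probe sets were those of mrpl-51 and mrpl-34 (11.24 each) and mrpl-18 (11), and mrps-11 (10.75), mrps-18B (10.45) and mrps-14 (10.38). The lowest of the tested genes included mrpl-37 (8.03) and mrpl-2 (8.49), and mrps-26 (7.01) and mrps-27 (7.93). Below the filter lay mrpl-45, whose human counterpart anchors the ribosome to the inner membrane, at 2.16 to 2.81 over all arrays, and mrps-31, at the arrays' minimum of 2.16 on 11 of 12. For these genes nothing can be said of a change.

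Genes that work with the mitochondrial ribosome had no call in any of the 6 comparisons. With hsp-6 RNAi against empty vector the 7 translation factors and assembly proteins tested had a median of -0.13. Among them, oxa-1, whose product inserts newly made proteins into the inner membrane, had -1.16 (adjusted p = 0.12), eral-1, a small subunit assembly factor in human cells, had -1.11 (0.15), and mrrf-1, which recycles ribosomes, had 0.82 (0.15). The 9 mitochondrial tRNA synthetases had a median of -0.44, running from -0.84 for sars-2 to 0.65 for rars-2, and the 7 genes of mitochondrial DNA maintenance and transcription a median of -0.39, from -1.14 for atad-3 to 0.57 for hmg-5. At an unadjusted p below 0.05 these lists had 3, 3 and 3 lower and 1, 1 and 1 higher, where 10.2% of all tested probe sets were lower and 11.4% higher at that p. Genes of the mitochondrial genome itself, which these ribosomes translate, were not analysed here.

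The cytosolic ribosome, the much larger machine that makes the mitochondrial ribosomal proteins, showed smaller differences with hsp-6 RNAi against empty vector. Of 74 genes, 3 were called lower (rpl-28, rpl-10a and rpl-13A, by 0.37 to 0.45 on the log2 scale) and none higher, with a median of -0.18 and a range of -0.53 to 0.05. A negative difference was found for 70 of them (94.6%, against 78.9% of the mitochondrial set), and all hsp-6 arrays lay below all empty vector arrays for 45 (60.8%, against 59.6%). The mitochondrial set ran from -1.52 to 0.41, an SD over genes of 0.49 against 0.13. Cytosolic ribosomal probe sets read far higher, with mean array medians of 13.82 with hsp-6 RNAi and 14.03 with empty vector. Those of the mitochondrial set were 9.30 and 9.67, and the arrays' maxima 14.96 to 15.45. Whether a signal near the top of the range narrows the differences was not tested. In neither double RNAi group was a cytosolic ribosomal protein gene called against hsp-6 RNAi. Nuclear genes of the respiratory chain, the partners of the proteins made on mitochondrial ribosomes, had a median of -0.22 over 40 genes, with atp-1 called lower (-0.80, adjusted p = 0.038) and cyc-2.1 higher (0.42, adjusted p = 0.038) by limma. In both double RNAi groups lpd-5 was the member of that list called higher than with hsp-6 RNAi (0.51 with hsp-6;hsf-1 RNAi and 0.67 in the hsp-6;dve-1-labelled arrays).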

How the data were processed

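The deposited values are log2 GCRMA values of each probe set, made by the authors; GCOS 1.4 and GCRMA are named in the submitters' processing notes, without settings. Values reach down to a shared minimum of 2.16. Arrays carry no count depth, and the number of arrays limits the precision. Gene symbols come from the annotation of the array. Control probe sets were left out.

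Group means were fitted to all 12 arrays with limma 3.58.1 in R 4.3.3 (intensity trend in the variance model, two-sided tests), with p-values adjusted by Benjamini-Hochberg over all 12057 tested probe sets and a threshold of 0.05. Called in the text means passing that test. The fit was also run on simulated data with independent noise. Those data hold no like or outlying arrays, so they cannot show how the fit handles the arrays here. The main fit took no arrays as pairs, and the labels do not say that same-numbered replicates belong together. For the hsp-6;dve-1-labelled and empty vector groups, deviations of same-numbered replicates from the group means correlated at 0.36, 0.25 and 0.11. A fit with the replicate number as a block was an alternative. Differences are the first-named group minus the other, on the log2 scale, with the standard error (SE). Lists are described by counts and medians, with no test.

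The members and lists were chosen with earlier results of these data known, and the role groups after the members' values had been seen. Named are mrps-5, the largest called members per subunit and comparison (up to 4 each way), the highest and lowest 3 per subunit with empty vector, genes below the filter, the RNAi targets, and up to 3 called members of other lists; other genes were picked with their values in view. Marker sums add linear signals before taking log2. Python 3.11.15 with matplotlib 3.10.9 drew the figures. Alternatives were other filters, scalings, variance models, samples and probe sets, and leaving out each array.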

Additional observations from a re-analysis of the deposited data

How the results depend on the processing

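Alternatives moved the number of members called more than the medians. For hsp-6 RNAi against empty vector (7 called), the count was 3 with the replicate block, 1 with hsp-6 replicates 1 and 3 averaged, and 16 without the pair of arrays lying farthest out; of all probe sets, 2.11%, 0.846% and 13.9% were called there, against 2.74% with all arrays. Higher and lower calls over all probe sets numbered 806 and 875 without that pair, and 237 and 93 with it. For hsp-6;hsf-1 against hsp-6 RNAi (4 called) it was 0 with no filter, 1 with only the groups compared in the fit, 0 with the replicate block, 0 with the averaged arrays and 9 without the farthest arrays (0.989%, 3.72%, 2.71%, 0.29% and 5.99% of all probe sets, against 5.67%). For the hsp-6;dve-1-labelled arrays against hsp-6 RNAi (9 called) it was 5 with no filter, 5 with the replicate block and 2 with the averaged arrays (1.7%, 3.18% and 0.879% of all, against 5.74%), and without the farthest arrays the small subunit median was 0.36 in place of 0.20. Averaging the like arrays or leaving any array out leaves fewer samples. The cause of the other shifts was not tested. Whether same-numbered replicates share more than a number is not said in the labels. Deviations of same-numbered arrays correlated at -0.76 to 0.61, and in 5 of the 6 comparisons not every pair exceeded 0.1. With 3 arrays in each group such correlations cannot settle a pairing. In the comparison of the hsp-6;dve-1-labelled arrays with empty vector every pair exceeded 0.1 (0.11 to 0.36), and there the block left 0 members called.

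Leaving out each array in turn gave 1 to 12, 0 to 7 and 0 to 13 called members in these comparisons, and 0 in all 3 others. Of all probe sets, 0.805% to 6.13%, 0.29% to 11.9% and 0.838% to 10.3% were called there, and up to 8.68% in the others. Large and small subunit medians ran from -0.42 to -0.29 and from -0.49 to -0.26 for hsp-6 RNAi against empty vector, 0.17 to 0.45 and -0.01 to 0.34 for hsp-6;hsf-1 against hsp-6 RNAi, and 0.35 to 0.44 and 0.10 to 0.36 for the hsp-6;dve-1-labelled arrays against hsp-6 RNAi. Against empty vector they ran from -0.31 to -0.01 and -0.31 to 0.01 with hsp-6;hsf-1 RNAi, and -0.12 to 0.09 and -0.15 to 0.10 in the hsp-6;dve-1-labelled arrays. Between the double RNAi groups they ran from -0.30 to 0.02 and -0.28 to 0.05. In the last comparison with empty vector, 77% of all called probe sets were higher, against 66% after quantile normalization and 58.7% after centring.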

Other observations

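In 5 genes the array carries further probe sets for the same symbol, which were set aside by the rule of the highest mean. The third probe set of mrpl-44, a weakly read one, gave 5.36, 4.97 and 5.57 with hsp-6 RNAi and 5.0, 4.84 and 5.13 with empty vector, a positive difference where the chosen one gave -0.21, and neither was called. Its values with hsp-6;hsf-1 RNAi were 4.31, 4.83 and 3.91. The second probe set of mrpl-4 read 8.39, 8.29 and 8.53 with hsp-6 RNAi, against 9.19, 9.37 and 9.34 with empty vector. The product of mrpl-4 is the counterpart of a bacterial tunnel protein, and this probe set gave -0.89 beside -0.59 on the chosen one.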
